A study of Homo sapiens with 4 samples.

Results

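The block described here is a stretch of the short arm of human chromosome 17 that begins just before the start of METTL16 and holds PAFAH1B1 and CLUH. It was defined by position only, as the 275 bins named from 2513000 on in steps of 1 kb (hg38), out of 2000 bins in each contact matrix. Each bin was taken as 10 kb wide, from 4500 bases before its name. No header states this, and it was inferred from coordinates of named bins in the study's supplementary list and the smooth change of values. Every placement of a bin on a gene or sequence rests on this inference. Neighbouring bins thus overlap, and the block was therefore cut into 28 windows of 10 kb that do not overlap. The contacts come from Hi-C, which joins by ligation DNA ends that lie close in the nucleus and counts the joined pairs by sequencing. Untreated H9 cells, a widely used line of human embryonic stem cells (hESCs) of genotype WT, gave 2 libraries, and neuroectodermal cells obtained from H9 by neuroectodermal differentiation, also WT, gave 2 libraries. Hi-C holds no expression values, so the labelled cell types could not be checked against marker genes. For each replicate number the hESC and the neuroectoderm matrix carry the same source directory in their headers, so which matrix belongs to which cell type is known from the labels alone. Nothing in the labels says whether replicates came from separate cultures, so the spread between them may be technical.

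PAFAH1B1 encodes LIS1, a regulator of the motor protein dynein that moves nuclei in dividing and migrating neural cells, and its loss causes lissencephaly. CLUH encodes an RNA-binding protein of messages for mitochondrial proteins. METTL16 is an RNA m6A methyltransferase, and RAP1GAP2 switches off the small GTPase Rap1. Chromosomes are folded into domains within which contacts are frequent, and domain borders, where contacts across are few, often hold sites for CTCF, a DNA-binding protein that stops loop extrusion in an orientation-dependent way.

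In the GENCODE 44 annotation METTL16 (ENSG00000127804.13) lies on the minus strand and starts at 2511891, inside the first window. PAFAH1B1 (ENSG00000007168.14) spans chr17:2593210-2685615 on the plus strand. CLUH (ENSG00000132361.18) spans chr17:2689386-2712663 on the minus strand, so that PAFAH1B1 and CLUH point towards each other. CCDC92B follows at chr17:2720801-2749652 on the minus strand, and RAP1GAP2 starts at 2755705 on the plus strand and runs out of the block. The microRNA genes MIR6776 and MIR1253 start at 2692919 and 2748182, both on the minus strand. The other annotated starts are those of pseudogenes, non-coding RNAs and 1 gene model still to be checked, and the stretch between METTL16 and PAFAH1B1 holds no protein-coding gene. These positions divided the block into 4 segments: METTL16 start to PAFAH1B1 start (upstream segment, 8 windows), the PAFAH1B1 body (10), the CLUH body (2) and CLUH start to the block end (downstream segment, 8).

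The hg38 sequence of the block was searched on both strands for a CTCF core, written as CCA, any 2 bases, AG, any 2 bases and GGC. The block held 13 matches in 9 of its 28 windows (32.1%), against 50 of 148 windows (33.8%) over the part of the region with values, so the block was not richer in them. Their strands were not evenly laid out. Of the 5 matches that start between 2675480 and 2692838, from the last part of PAFAH1B1 into CLUH, 4 were on the minus strand. The 5 matches that start between 2707708 and 2734367, in CLUH and CCDC92B, were all on the plus strand, and the last match of the block, in RAP1GAP2, was on the minus strand. A match describes letters and is no measured CTCF site. The following are shown because they lie in the windows of the lowest insulation or at the ends of the richest contacts described further on, each written 5′ to 3′ on its own strand with the core in capitals:
Intergenic, upstream segment, plus strand, core at chr17:2522414-2522425: ataacaaatCCACCAGCTGGCttccattct
PAFAH1B1, non-coding exon of some transcripts, minus strand, core at chr17:2675480-2675491: atgtaaccaCCACCAGAGGGCagtaaacag
CLUH intron, plus strand, core at chr17:2707708-2707719: cagctgccgCCAACAGCTGGCacagacccg
CLUH intron, plus strand, core at chr17:2707737-2707748: gggtccaggCCATAAGGTGGCtgcctctgc
CCDC92B intron, plus strand, core at chr17:2734367-2734378: accttaataCCACCAGTTGGCctgtgtgtc
RAP1GAP2 intron, minus strand, core at chr17:2782023-2782034: tggagacacCCAGTAGGTGGCtggcacaca

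The promoters of the genes that name the block are shown as RefSeq (GRCh38.p14) places them, as 250 bases before the start in lower case and 50 transcribed bases in capitals. RefSeq gives CLUH more than 1 start, and the one with the higher GC content is printed. The PAFAH1B1 promoter had a GC content of 79.3% and 47 CpG dinucleotides, and the CLUH promoter 74% and 39, against medians of 58.7% and 14 over 35116 promoters. The other CLUH start had 63.7% and 21, nearer to the medians, and 36.9% and 39.5% of all promoters were at or above it. The CLUH promoter lies in the stretch of the lowest hESC insulation.
PAFAH1B1, plus strand, chr17:2593404-2593703: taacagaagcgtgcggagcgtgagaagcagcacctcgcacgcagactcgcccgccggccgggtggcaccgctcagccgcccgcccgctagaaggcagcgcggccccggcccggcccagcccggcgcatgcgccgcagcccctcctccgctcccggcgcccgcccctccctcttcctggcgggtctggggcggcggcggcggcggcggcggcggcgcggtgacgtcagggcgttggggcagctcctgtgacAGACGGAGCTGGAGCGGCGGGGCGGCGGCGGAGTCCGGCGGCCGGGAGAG
CLUH, minus strand, chr17:2711715-2712014: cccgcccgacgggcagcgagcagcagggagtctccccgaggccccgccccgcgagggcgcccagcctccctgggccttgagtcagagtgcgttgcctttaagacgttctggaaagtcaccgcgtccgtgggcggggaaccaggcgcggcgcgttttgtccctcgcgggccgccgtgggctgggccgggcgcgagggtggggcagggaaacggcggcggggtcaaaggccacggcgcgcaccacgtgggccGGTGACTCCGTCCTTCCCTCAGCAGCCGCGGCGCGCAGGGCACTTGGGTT

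All 275 bins had values in all 4 libraries. The block held 9225 read pairs in hESC replicate 1, 9287 in hESC replicate 2, and 5435 and 5393 in the corresponding neuroectoderm libraries, between 15.3% and 16.2% of the region. The share with both ends in 1 window was 37.5% and 37.9% in the hESC libraries (Wilson 95% intervals 36.5% to 38.5% and 36.9% to 38.9%) and 54.4% and 54.0% in the neuroectoderm libraries (53.0% to 55.7% and 52.6% to 55.3%), and the part of this gap in the differences between cell types given below was not tested. Window pairs at least 20 kb apart, 351 in the block, are used below and held on average 11.1, 11.2, 4.72 and 4.93 read pairs in the same order. Neuroectoderm thus has the fewer informative read pairs and is the less precise. Over the window pairs with enough reads, replicates differed by no more than sampling noise, with a chi-square per degree of freedom of 0.97 (p = 0.621, 264 window pairs) in hESC, against 1.03 (p = 0.386, 137 window pairs) in neuroectoderm. Between the cell types it ranged from 1.11 to 1.26. Intervals given here cover counting error only.

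The first question was whether the block as a whole was in more frequent contact than its distances predict. Contact was expressed as observed over expected, the deposited value divided by the mean over all bin pairs of that library that lie equally far apart. Over the 351 window pairs the mean was 0.979 and 0.988 in the hESC libraries, against 0.966 and 1.01 in the neuroectoderm libraries, so contact in the block was at the level of its distance and the groups overlapped. The difference of neuroectoderm minus hESC was 0.0039 (exact two-sided permutation test p = 1, n = 2 per group; the smallest p this design allows is 0.333). With an expectation from both distance and the read totals of the windows, the level was 0.941 in hESC, against 0.991 in neuroectoderm. The size of the difference thus depended on the expectation. Over window pairs 20 to 200 kb apart the block stood at 0.99 ± 0.01 (SD, n = 2) in hESC, against 0.99 ± 0.04 in neuroectoderm. The neighbouring stretches differed from it by more than these spreads, with 1.29 and 1.33 in the SMG6 body, 0.77 and 0.69 between SRR and METTL16, and 1.43 and 1.34 in the RAP1GAP2 stretch.

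This average hid an uneven layout, seen in the maps of all window pairs.

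**Figure D1:**
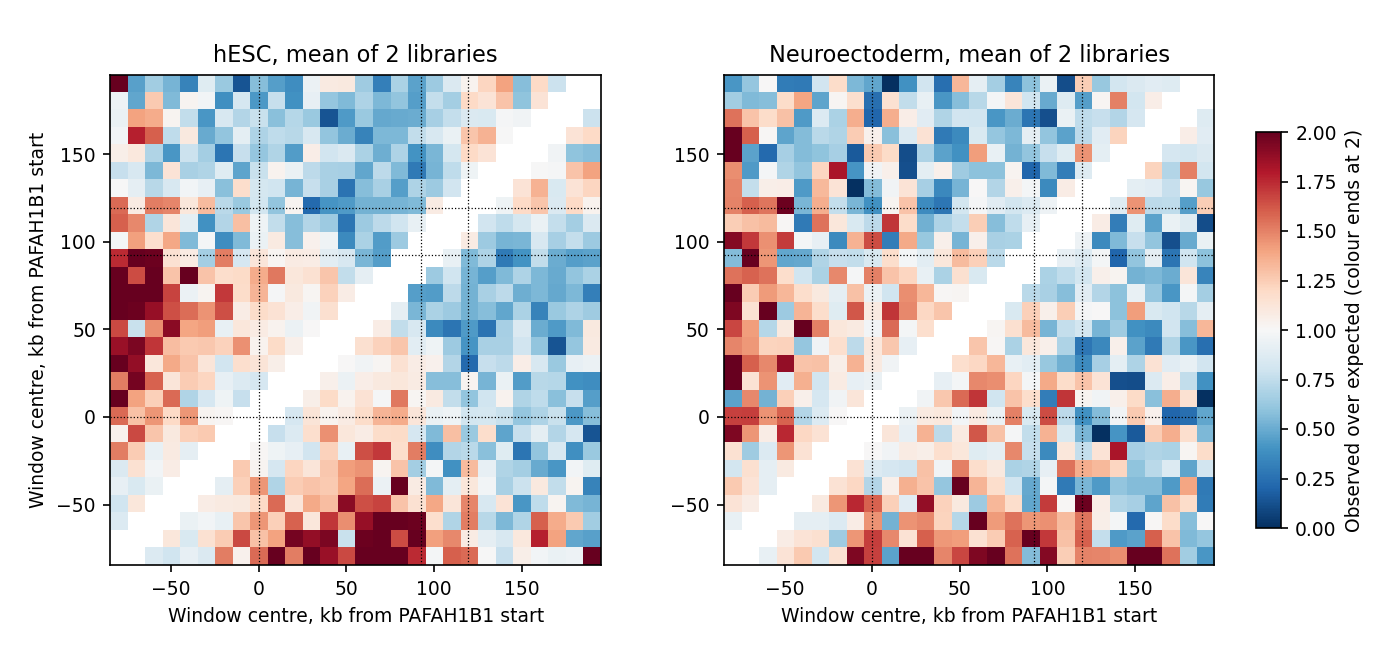
Observed over expected contact of each pair of 10-kb windows in the block, as the mean of the 2 libraries of each cell type (colour scale from 0 to 2, white at 1), with window centres on both axes in kb from the PAFAH1B1 start. Dotted lines mark the start and end of PAFAH1B1 and the start of CLUH, pairs under 20 kb are blank, and the red area joins the upstream segment with the PAFAH1B1 body while the blue area joins PAFAH1B1 with what follows it.

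Contacts between the upstream segment and the PAFAH1B1 body were the highest of the 9 segment combinations in both cell types, although with windows moved by 5 kb they were level with those inside the upstream segment in neuroectoderm (1.21 each). They stood at 1.45 and 1.48 in the hESC libraries, against 1.20 and 1.3 in the neuroectoderm libraries, means of 1.46 ± 0.02 (SD, n = 2) and 1.25 ± 0.07 over 79 window pairs. All 4 libraries were above 1, and both hESC libraries were above both neuroectoderm libraries. The exact permutation p was 0.333, the smallest possible with 2 libraries against 2, as for every segment combination below. With an expectation that takes both distance and the read totals of the windows into account, the hESC value was 1.21 and the difference of neuroectoderm minus hESC went from -0.21 to -0.01. Contacts inside the upstream segment were 1.12 and 1.06 in hESC, against 1.13 and 1.18 in neuroectoderm, and contacts inside the PAFAH1B1 body were 1.07 and 1.03 in hESC, against 1.15 and 1.08 in neuroectoderm. Within both segments neuroectoderm was higher without overlap, by 0.07 in each, an amount close to the spread between its own replicates. With the expectation from distance and read totals these differences were 0.12 in the upstream segment and 0.16 in the PAFAH1B1 body. With a minimum distance of 10 kb they were 0.04 in each.

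Contacts of PAFAH1B1 with what follows its end were depleted. The PAFAH1B1 body with the CLUH body, its convergent neighbour, stood at 0.785 and 0.661 in hESC, against 0.881 and 0.914 in neuroectoderm. The PAFAH1B1 body with the downstream segment gave the lowest values in hESC, 0.592 and 0.655, and 0.696 and 0.758 in neuroectoderm. Both combinations lay below 1 in all 4 libraries and were lower in hESC in both replicates. Over all 144 window pairs that span CLUH, the upstream segment and PAFAH1B1 on one side and the downstream segment on the other, the mean was 0.737 ± 0.025 (SD, n = 2) in hESC, against 0.823 ± 0.021 in neuroectoderm. These rested on 668 and 713 read pairs in hESC, against 341 and 342 in neuroectoderm. The difference across CLUH was 0.09, and 0.15 with the expectation from distance and read totals.

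Contacts on the far side of CLUH went the other way. The CLUH body with the downstream segment stood at 0.753 and 0.754 in hESC, against 0.578 and 0.680 in neuroectoderm, the lowest combination in neuroectoderm. Contacts inside the downstream segment, over CCDC92B and the start of RAP1GAP2, were 1.12 and 0.985 in hESC, against 0.872 and 0.964 in neuroectoderm. Contacts of the CLUH body were thus higher with PAFAH1B1 and lower with the downstream segment in both neuroectoderm libraries, but in read pairs over expectation the exact Poisson 95% intervals overlapped. With PAFAH1B1 these were 0.645 to 0.892 and 0.544 to 0.772 in hESC, against 0.677 to 1.03 and 0.720 to 1.07 in neuroectoderm. With the downstream segment they were 0.663 to 0.934 and 0.665 to 0.936 in hESC, against 0.490 to 0.813 and 0.565 to 0.90 in neuroectoderm. The upstream segment with the CLUH body stood at 0.883 and 1.07 in hESC, against 1.18 and 1.20 in neuroectoderm, on 49 to 82 read pairs per library, and this difference of 0.21 was 0.05 with windows moved by 5 kb. The upstream with the downstream segment gave 0.877 and 0.879 in hESC, against 0.95 and 0.94 in neuroectoderm. None of the 9 combinations overlapped between cell types. Segment combinations elsewhere in the region were not measured, so this count has no share to stand against, and the 9 share windows. Each of the 9 kept the direction of its difference under 5 alternatives of expectation, distance and window placement. The minimum distance could not change 3 of the combinations, which hold no near pairs. In 8 of the 9 every counting interval of one cell type overlapped those of the other, and in the PAFAH1B1 body with the downstream segment 3 of 4 such library pairs did. Of the 351 single window pairs, 62 (17.7%) were lower in neuroectoderm without overlap and 58 (16.5%) higher, against 13.3% and 9.97% of all window pairs, which include distant ones with few reads. Pairs tied at 0 count as overlapping, and no share at the distances of the block was computed. No excess in the block can therefore be read from these shares.

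**Figure D2:**
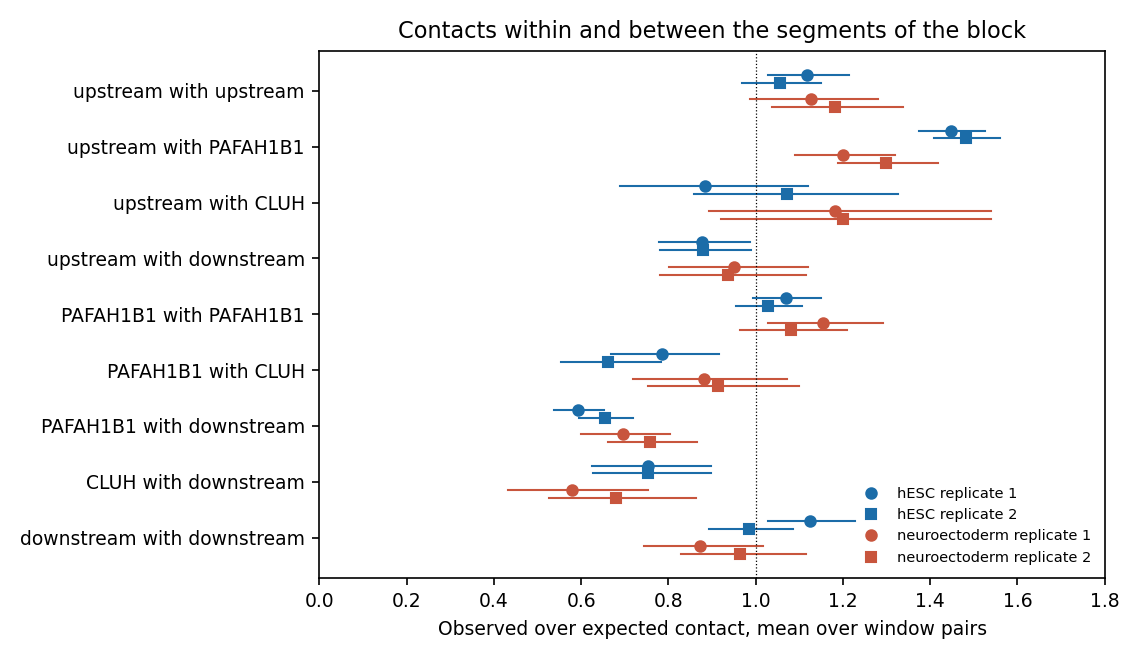
Mean observed over expected contact (horizontal axis, no unit, dotted line at 1) within and between the 4 segments of the block for each of the 4 libraries, where upstream is METTL16 start to PAFAH1B1 start and downstream is CLUH start to block end. Bars have the widths of the exact Poisson 95% intervals of read pairs over expectation, moved to sit at the point, and cover counting error only. Overlaps given in the text are of the intervals before this move. For upstream with PAFAH1B1 these were 1.23 to 1.38 and 1.28 to 1.44 in hESC, below the points. Upstream with PAFAH1B1 is the highest row in all libraries. The CLUH row with PAFAH1B1 and that with downstream shift in opposite directions between cell types.

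In each of 5 distance classes from 20 kb to the length of the block, the mean of either cell type lay between 0.90 and 1.06. Between 20 and 50 kb the block stood at 0.962 and 0.924 in hESC, against 0.996 and 1.01 in neuroectoderm, and between 100 and 150 kb at 1.00 and 1.09 in hESC, against 0.920 and 1.03 in neuroectoderm.

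The second question was where the border near CLUH lies. The insulation score is the log2 of the mean contact between the bins 10 to 100 kb to the left and those 10 to 100 kb to the right of a position, relative to the mean over the region, so low values mark positions that few contacts cross. Scores were highest in the upstream segment, with maxima between 0.60 and 0.65 at bins 2559000 to 2580000, and fell through PAFAH1B1 to a low beyond its end. From bin 2700000 to the end of the block the lowest bin was 2701000 (-0.81) in hESC replicate 1 and 2710000 (-0.65) in replicate 2, both in the CLUH gene. In neuroectoderm it was 2737000 (-0.81) in replicate 1, in CCDC92B, and 2769000 (-0.65) in replicate 2, in RAP1GAP2. The libraries did not overlap between cell types, with means 47.5 kb apart, and the neuroectoderm libraries differed by 32 kb from each other.

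The mean hESC profile was lowest at bin 2705000, in the CLUH body, and in the whole block the 33 bins within 0.1 of this minimum ran from 2687000, between the ends of PAFAH1B1 and CLUH, to 2719000. The mean neuroectoderm profile was lowest at bin 2780000, in RAP1GAP2, and the 77 bins from 2711000 to the end of the block lay within 0.1 of it, a run that went on past the block to bin 2802000. The low of the mean hESC profile thus covered CLUH and its flanks. That of the mean neuroectoderm profile was a longer floor from the CLUH start on. In single hESC libraries 25 and 39 bins lay within 0.1 of the minimum, each an unbroken run. In the neuroectoderm libraries 58 and 39 bins did, both with gaps, so the unbroken floor belongs to the mean profile. Within neither cell type can a single position be singled out. Among 1037 scored bins of the region, bin 2705000 stood at percentile 5.54 in hESC and 28.8 in neuroectoderm, and bin 2780000 at percentile 36.7 in hESC and 14.1 in neuroectoderm.

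**Figure D3:**
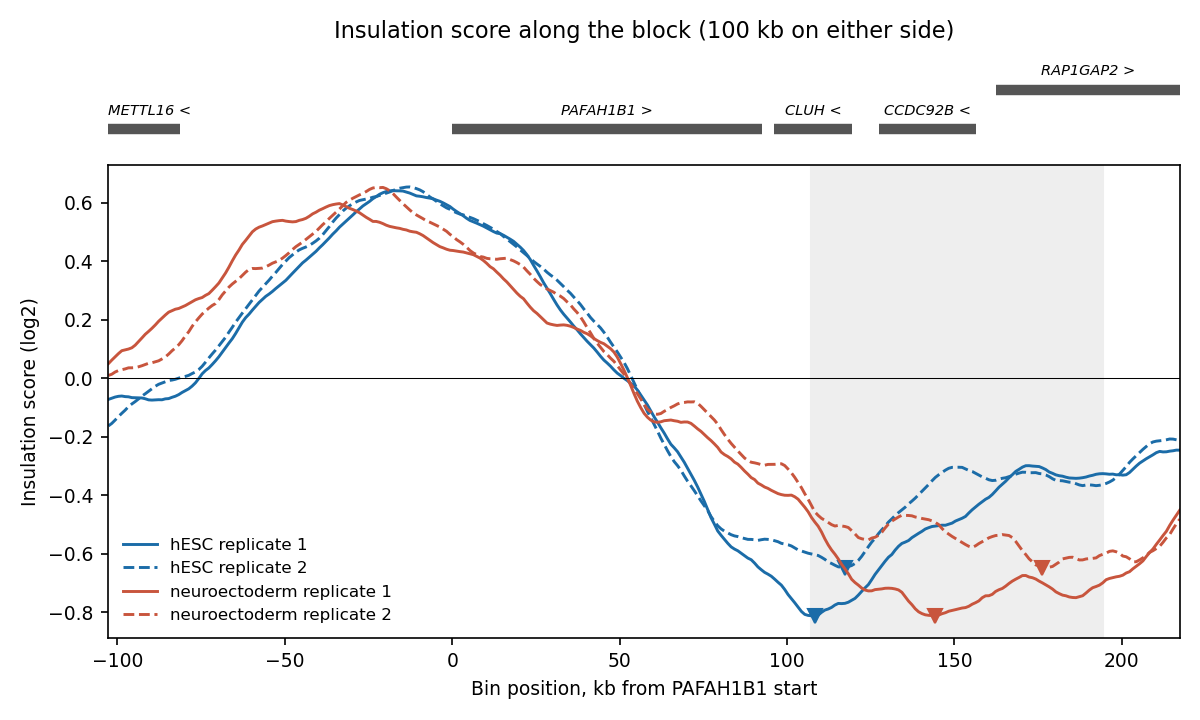
Insulation score (log2, vertical axis) of the 4 libraries against bin position in kb from the PAFAH1B1 start, with genes above and their direction of transcription as arrows; triangles mark the lowest bin of each library in the searched interval (grey). The hESC curves dip over CLUH and rise again to above -0.4, while the neuroectoderm curves stay low to the end of the block.

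At bin 2705000 the score was -0.79 and -0.63 in hESC, against -0.57 and -0.49 in neuroectoderm, a difference of 0.18 with an SD of 0.11 between the hESC libraries. Without hESC replicate 1 the difference was 0.10. At bin 2780000 it was -0.34 and -0.37 in hESC, against -0.75 and -0.62 in neuroectoderm, a difference of -0.33 (SD 0.02 and 0.09, n = 2 each) that was -0.15 with 200 kb on either side. Each bin was chosen as the lowest of one cell type, which favours the direction of its difference, so these differences are descriptions. In read pairs, 450 and 500 crossed bin 2705000 in hESC, 0.567 and 0.628 of the expectation, and 243 and 260 in neuroectoderm, 0.676 and 0.698. At bin 2780000, 644 and 604 crossed in hESC, 0.774 and 0.748 of the expectation, and 226 and 232 in neuroectoderm, 0.608 and 0.611. At bin 2705000 the exact Poisson 95% intervals of hESC (0.516 to 0.622 and 0.574 to 0.685) overlapped those of neuroectoderm (0.594 to 0.767 and 0.616 to 0.788). At bin 2780000 the interval of hESC replicate 1 (0.716 to 0.836) lay above both neuroectoderm intervals, which reached 0.692 and 0.695, while that of hESC replicate 2 (0.689 to 0.810) met their upper ends.

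Along the block the cell types differed in runs of bins. In 55 consecutive bins, 2655000 to 2709000, over the last part of PAFAH1B1 and CLUH, both neuroectoderm libraries were above both hESC libraries, by 0.05 to 0.32. In the last 49 bins, from 2739000 on, over CCDC92B and RAP1GAP2, both were below, by 0.25 to 0.36. A further 49 bins at the start of the block, 2513000 to 2561000, were higher in neuroectoderm by 0.03 to 0.23, and 47 bins from 2575000 to 2621000, around the PAFAH1B1 start, were lower by 0.07 to 0.12. In all, 101 of the 275 bins were lower in neuroectoderm without overlap and 104 higher. Over all scored bins the shares were 36.5% lower and 36.6% higher, so the number of such bins in the block was that of the region. Neighbouring bins share most of their read pairs and are not independent.

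In a fit of limma to the scores of the 104 windows that could be scored, chosen after the profiles had been seen, 13 of the 28 block windows differed between cell types with a Benjamini-Hochberg adjusted p under 0.05. Of all windows 41.3% were called, so this count too is near that of the region. Of the 13, 8 were higher in neuroectoderm, at the start of the block and from 2663000 to 2703000, and 5 were lower, from 2743000 to 2783000. The window 2773000 in RAP1GAP2 differed most, by -0.34 (SE 0.06, limma adjusted p = 5.87e-04), and the window 2673000 in PAFAH1B1 by 0.31 (SE 0.06, limma adjusted p = 9.36e-04). Limma pools the variance over windows whose scores reach 100 kb to either side. Such windows share read pairs and are not independent, so these p-values may be too small. The exact permutation p was 0.333 for each of these windows, the smallest possible with 2 libraries against 2. Windows 2673000, 2763000, 2773000 and 2783000 were called when any 1 library was left out, and the others in 1 to 3 of the 4 such fits. Without hESC replicate 1 the count was 6, against 19.2% of all windows, and without hESC replicate 2 it was 7, against 22.1%. Without neuroectoderm replicate 1 it was 12, against 46.2%, and without neuroectoderm replicate 2 it was 17, against 52.9%.

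Directionality compares the contacts of a bin with the 20 to 100 kb to its right and to its left, as (right - left)/(right + left), and passes from negative to positive at a border. Over the CLUH body it was 0.10 and 0.11 in hESC, against -0.15 and -0.10 in neuroectoderm. CLUH thus leaned towards CCDC92B and RAP1GAP2 in hESC and towards PAFAH1B1 in neuroectoderm in both replicates, and the difference exceeded the spread (SD 0.005 and 0.04, n = 2 each). The PAFAH1B1 body leaned left in every library, by -0.18 and -0.20 in hESC, against -0.10 and -0.10 in neuroectoderm. The upstream segment leaned right, by 0.12 and 0.11 in hESC, against 0.04 and 0.05 in neuroectoderm. The strongest change from left to right over the whole block lay at bins 2692000 and 2684000 in the hESC libraries, at the ends of CLUH and PAFAH1B1. In neuroectoderm the replicates put it at 2746000 and 2592000, so that this whole-block search placed no border there. That search was added after the data had been seen. The planned search, over the interval used for the lowest insulation bin, put the change at 2785000 and 2782000 in hESC, in RAP1GAP2. In neuroectoderm it gave 2746000 and 2786000, so the cell types overlapped. The planned search thus placed no hESC border in CLUH. Its interval starts beyond both hESC bins of the whole-block search and could not return them.

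**Figure D4:**
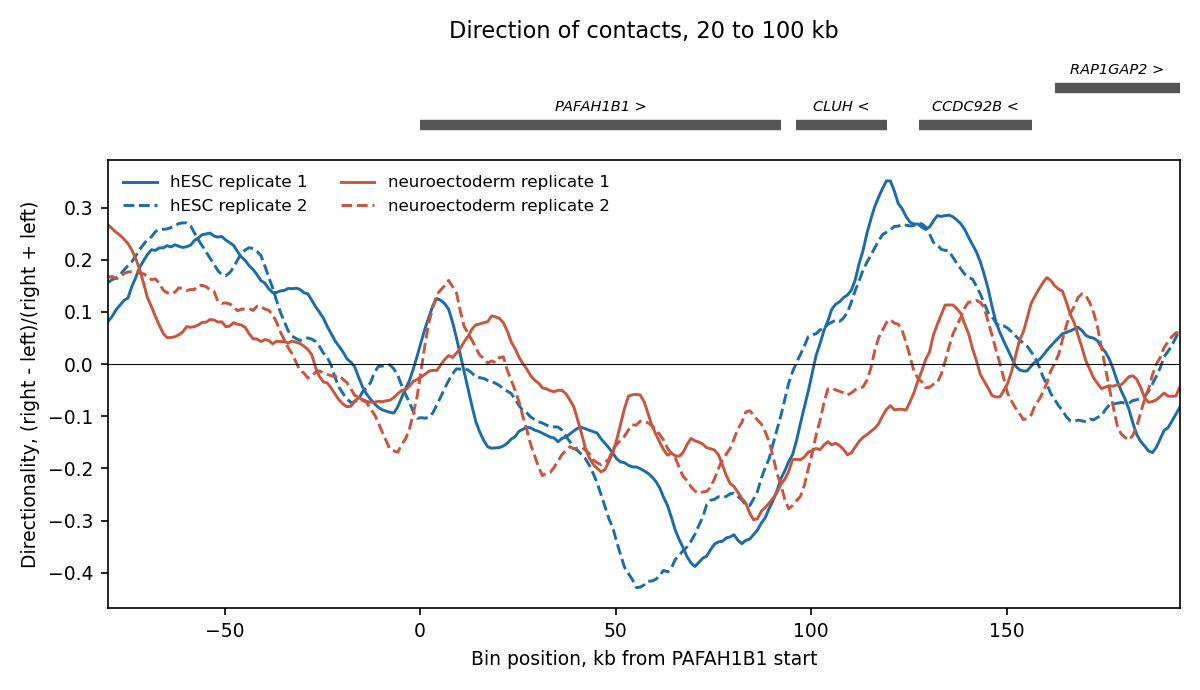
Directionality (vertical axis, no unit, running mean over 10 bins) of the 4 libraries against bin position in kb from the PAFAH1B1 start, with genes above. Over CLUH the hESC curves rise from below to above 0, while the neuroectoderm curves stay below 0 over most of the gene.

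When the score was built from other widths and values, the hESC border stayed in CLUH with 1 exception, and the neuroectoderm border did not stay in place. With 50, 75, 150 and 200 kb on either side, the lowest bin of the mean hESC profile was 2700000, 2700000, 2706000 and 2712000, and that of neuroectoderm 2716000, 2743000, 2769000 and 2771000. The first 2 hESC values are the edge of the searched interval. Over the whole block the lowest hESC bin was 2677000 with 50 kb, in PAFAH1B1, and 2698000 with 75 kb, in CLUH, and the other settings gave the same bins as the searched interval. In each of the 7 settings both hESC libraries lay before both neuroectoderm libraries. This held over the searched interval and over the whole block.

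**Figure D5:**
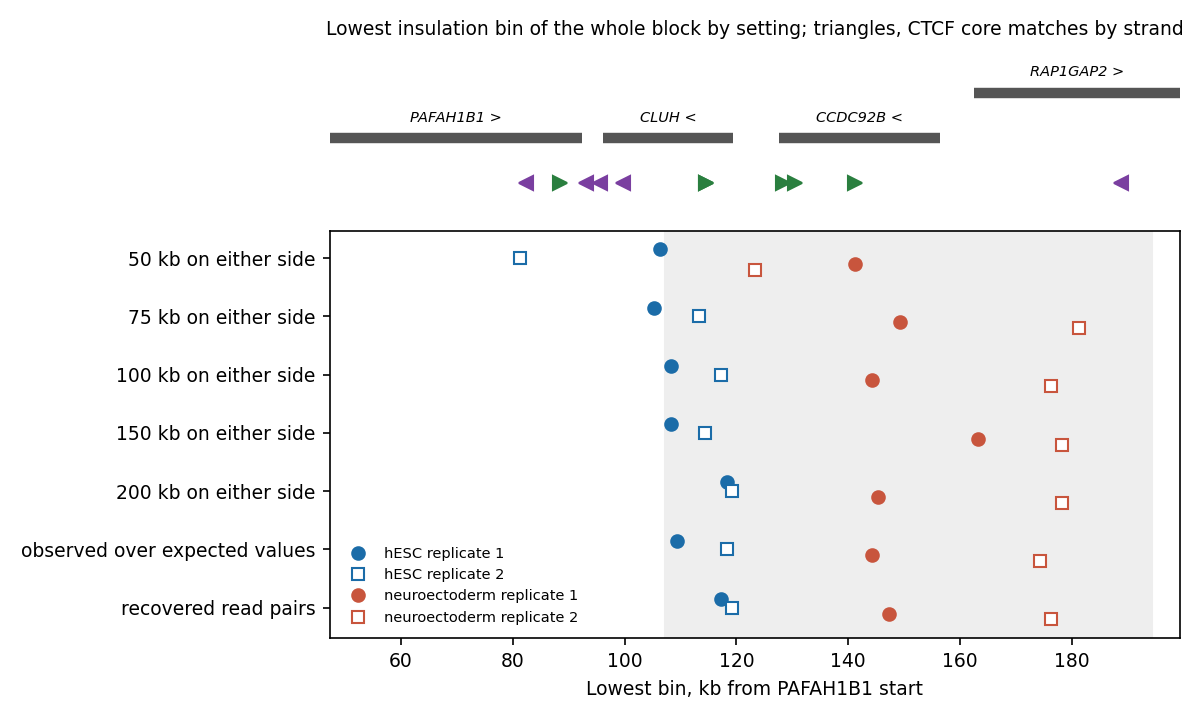
Lowest insulation bin of each library over the whole block (horizontal axis, kb from the PAFAH1B1 start) under 7 ways to build the score (rows), with the interval from bin 2700000 on in grey; arrowheads above mark CTCF core matches by strand (right, plus; left, minus), of which 1 pair overlaps in drawing. Points of hESC lie over CLUH, except that of replicate 2 with 50 kb at bin 2674000 in PAFAH1B1, and those of neuroectoderm scatter from beyond the CLUH start to RAP1GAP2.

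Low coverage accompanied the hESC border and was not tested for its part in it. The window 2693000 at the 3′ end of CLUH had the fewest read ends of the block in hESC, 473 and 487 against medians of 901.5 and 899.5, and 393 and 464 in neuroectoderm against 490.5 and 494. Its GC content was 64.2% and that of window 2703000 was 60.3%, against a median of 47.1%. The deposited values are balanced for such totals. In recovered read pairs, which are not balanced, the lowest bin was 2710000 in hESC, against 2747000 in neuroectoderm.

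The third question was which single window pairs were in contact more often than their distance predicts. In an exact one-sided Poisson test per library, with Benjamini-Hochberg adjustment over all window pairs of the matrix, 0 of 351 block pairs passed in both replicates of either cell type. Over all 10733 window pairs 0.168% passed in hESC, against 0 in neuroectoderm. In hESC replicate 1 alone 5 block pairs passed and in replicate 2 alone 3. With the read pairs of both replicates summed, which treats them as 1 library, 13 block pairs passed in hESC (3.70%), against 1.57% of all window pairs and 4.42% of those at most 270 kb apart. In neuroectoderm 1 block pair passed (0.285%), against 0.326% and 1.07%. The block was thus not richer in such pairs than other pairs at its distances.

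Where these pairs lie is nonetheless uneven: all 13 hESC pairs joined the upstream segment with the PAFAH1B1 body. The strongest joined the window of the METTL16 start (2513000) with window 2673000 near the end of PAFAH1B1, 160 kb away. It held 22 and 18 read pairs in the hESC libraries, where 6.86 and 7.08 were expected, and 5 and 3 in the neuroectoderm libraries, where 2.75 and 2.35 were expected. The ratio over summed reads was 2.87 in hESC (exact Poisson 95% interval 2.05 to 3.91, exact Poisson adjusted p = 5.99e-06) and 1.57 in neuroectoderm (0.677 to 3.09), and these intervals overlap. Window 2523000 with 2663000 held 14 and 16 read pairs in hESC against 5.25 and 5.63 expected, and 4 and 3 in neuroectoderm against 2.72 and 2.91. The pair that passed in neuroectoderm, 2513000 with 2663000, held 6 and 10 read pairs there against 2.44 expected in each, and 19 and 11 in hESC against 6.25 and 6.54. It was thus past the threshold on summed reads in both cell types.

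Window 2523000 holds the plus-strand core match printed above, and windows 2673000 and 2683000 hold minus-strand ones, so that these matches face each other over about the length of PAFAH1B1 and its upstream stretch. Window 2683000 also holds a plus-strand match, at 2681733 in PAFAH1B1, which points the same way as that in window 2523000. These pairs of windows were named after their values had been seen. Window 2523000 with 2673000, 150 kb apart, held 10 and 10 read pairs in hESC against 6.17 and 5.94 expected, and 5 and 4 in neuroectoderm against 2.91 and 2.74. Its observed over expected value was 1.62, 1.68, 1.72 and 1.46, above 1 in all libraries, but it passed the Poisson test in none (adjusted p = 1). Window 2523000 with 2683000 stood at 2.77 and 2.42 in hESC, against 2.62 and 2.48 in neuroectoderm, on 5 to 11 read pairs per library, and was among the 13 hESC pairs.

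The contacts among the ends of PAFAH1B1 and CLUH were few. The start and end of PAFAH1B1, 90 kb apart, shared 8 and 7 read pairs in hESC, against 2 and 3 in neuroectoderm, observed over expected values of 1.23, 1.01, 0.666 and 1.03. The start of PAFAH1B1 with the end of CLUH gave 1.29 and 0.579 in hESC, against 1.84 and 1.46 in neuroectoderm, on 3 to 7 read pairs per library. The promoters of the genes, the starts of PAFAH1B1 and CLUH 120 kb apart, shared 7 and 6 read pairs in hESC (0.840 and 0.788 of expectation) and 0 and 3 in neuroectoderm, where 3.20 and 3.81 were expected. The end of PAFAH1B1 with the start of CLUH stood at 0.467 and 0.648 in hESC, against 1.01 and 0.716 in neuroectoderm. The end and start of CLUH stood at 1.04 and 1.13 in hESC, against 0.991 and 0.901 in neuroectoderm. None of these pairs passed the Poisson test, and the counting intervals of the cell types overlapped for each, so that no difference was detectable at this depth.

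The last question was which single window pairs differed between the cell types. In limma on log2(value + 1), fitted to 4479 window pairs of the whole matrix, 0 of the 346 block pairs tested passed an adjusted p of 0.05, and 0% of all pairs did. At an unadjusted p under 0.05, 13 block pairs (3.76%) passed, against 5.65% of all pairs. voom with limma on the recovered read pairs also called 0, with 32 block pairs (9.25%) at an unadjusted p under 0.05, against 7.77% of all pairs. The smallest p-value in the block belonged to EIF4A1P9's window 2583000 with window 2723000 in CCDC92B, which held 6 and 8 read pairs in hESC, against 0 and 0 in neuroectoderm (log2 difference -3.10, SE 0.63, limma adjusted p = 0.781). The next were 2513000 with 2603000, the METTL16 start with the first part of PAFAH1B1 (16 and 24 read pairs in hESC, 2 and 1 in neuroectoderm, log2 difference -1.97), and 2703000 with 2783000, CLUH with RAP1GAP2 (5 and 5, 1 and 0, log2 difference -2.47). The fourth and the fifth were 2523000 with 2663000 (log2 difference -1.12) and 2513000 with 2683000 (log2 difference -1.34). These 5 were lower in neuroectoderm, but of all 13 block pairs at an unadjusted p under 0.05, 9 were lower and 4 higher, and none passed the adjustment.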

How the data were processed

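Hi-C matrices of H9 hESCs (2 libraries) and neuroectodermal cells (2 libraries) were analysed, grouped by the sample labels. Per the labels, the authors cross-linked the cells and used a commercial Hi-C kit, and the submitters' processing notes name Bowtie2, HOMER and the build hg38. The deposited values are a balanced contact signal per pair of overlapping bins, equal in total for all bins of a library and not scaled between libraries. The authors' own interaction calls were not used, beyond the coordinates of bins named in their supplementary list.

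The members, segments and lists were chosen with earlier results of these data known. Read pairs were recovered from the signal as whole multiples of 2 bin factors per value, and 100% of values above 0 came within 0.1 of a whole number in each library. Windows of 10 kb that do not overlap were taken in register with the first block bin, and 148 had values in all libraries. The expected value was the mean at the same distance per library. Insulation used 100 kb on either side, leaving out the nearest 10 kb. Tests were exact permutation of 4 libraries, exact Poisson tests, and limma 3.58.1 in R 4.3.3. On window pairs limma was run with a trend on log2(value + 1), which understates changes of low pairs. Totals were scaled, and pairs above the median signal were kept. On insulation scores limma was run without a trend on the scores themselves. The voom fit was also run without a trend. Window pairs with at least 10 read pairs entered the chi-square test of replicates. Python 3.11.15 with scipy 1.17.1 was used elsewhere, and the scripts were tested on simulated data. Windows named in the text were those of gene starts and ends, the lowest insulation bins, pairs among the ends of PAFAH1B1 and CLUH, the 5 smallest limma p-values, and pairs above expectation. No pair was called in both replicates, so the latter were named from the summed reads. Depth, which limits precision, was 5393 to 9287 read pairs per library in the block. Alternatives were other expectations, distances, window placements, insulation widths, filters, pseudocounts and tests, a replicate block and leaving out each library.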

Additional observations from a re-analysis of the deposited data

How the results depend on the processing

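The block's contact level in hESC was 0.941 with an expectation from distance and read totals and 0.966 with windows moved by 5 kb, and contacts across CLUH in hESC were 0.679 with the former, each outside 1 SD of the reported value. The border position in hESC moved to 2712000 with 200 kb on either side (also over the whole block), to 2784000 by directionality in the searched interval, to 2687000 by directionality over the whole block, and as the lowest bin of the whole block to 2677000 with 50 kb and 2698000 with 75 kb. In neuroectoderm it moved to 2716000 with 50 kb, 2743000 with 75 kb and 2747000 with recovered read pairs (each also over the whole block) and to 2594000 by directionality over the whole block. Leaving out 1 library at a time placed it between 2701000 and 2710000 in hESC and between 2737000 and 2769000 in neuroectoderm. Block pairs above expectation in hESC numbered 13 on summed reads, 2 at percentile 95 in both replicates and 3 to 5 in a single library, and in neuroectoderm 1 on summed reads and 0 in a single library. The cause of these moves was not tested.

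Same-numbered libraries share a number, and no label ties them to a shared culture or day. Their deviations from the group means correlated at -0.0209 over 4479 window pairs, at 0.30 over the insulation scores of 104 windows and at 0.32 over those of the 28 block windows, and neither pairs nor windows are independent. With 2 numbers this does not settle whether they pair the samples. With the replicate number as a block, a difference of group means cannot change in this balanced design. It was thus the same 0.0039 for the block's contact level, and 0.18 and -0.33 for insulation. Limma with the block called 0 block window pairs. It called 8 block windows on insulation scores (26.0% of all windows) in place of 13 (41.3%), and without the block 6 to 17 with 1 library left out (19.2% to 52.9%). Limma called 0 block window pairs in all 13 alternatives run, including 50-kb windows, which were added after seeing the data, as were the widths of 75 and 150 kb, directionality over the whole block, the lowest bin of the whole block at every setting and the fit on insulation scores. Of 241 recomputed values, 195 were counted as kept, 46 moved and 0 reversed. Contact levels and positions counted as kept within the spread, and counts within 1.5 times the count. Differences counted as kept when their direction held, whatever their size. The insulation difference of -0.33 thus counted as kept at -0.15 with 200 kb on either side. Part of the 195 was fixed in advance. With 2 libraries, leaving 1 out always shifts a group's mean contact by less than 1 SD. The minimum distance cannot change combinations without near pairs, and the replicate block cannot change a difference of group means. The count is thus no measure of how stable the results are. Depth limits single window pairs, which held 4.72 to 11.2 read pairs on average per library.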
